A study of Rattus norvegicus with 24 samples.

Results

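The genes described here encode enzymes that make superoxide and enzymes that remove it or the peroxide it gives rise to: Cybb, Cyba, Sod1, Sod2, Sod3, Cat, Gpx1, Gpx3, Gpx4 and Hmox1. They were picked by symbol, and all 10 were found among the 14217 genes that the array annotation names by a single symbol. They were covered by 13 probe sets, and each gene was read from its brightest probe set, with the others as a check. Messenger RNA was measured on 24 rat expression arrays, each hybridised with RNA pooled from 5 male rats of 10 to 13 weeks (10 to 12 weeks for 1 pool), so n counts pools. The spontaneously hypertensive rat (SHR) gave 5 arrays for the rostral ventrolateral medulla (RVLM), 4 for the supraoptic nucleus (SON), 5 for the paraventricular nucleus (PVN) and 5 for the neurointermediate lobe (NIL), the back part of the pituitary. From the normotensive Wistar-Kyoto strain (WKY) there were 5 arrays of the RVLM, and no agent or transgene is named for any group. SHR and WKY are separate inbred strains, so a strain difference is not a difference by blood pressure alone.

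NADPH oxidase passes electrons from NADPH to oxygen and so makes superoxide. Superoxide dismutases turn superoxide into hydrogen peroxide, which catalase and the glutathione peroxidases break down. In the brain the phagocyte type of this oxidase is best known from microglia, and superoxide in the RVLM and PVN has been studied as a regulator of sympathetic outflow in hypertension. Vasopressin and oxytocin are made by magnocellular cells in the PVN and SON whose endings lie in the NIL, beside its melanotrophs. Neurons of the RVLM drive sympathetic nerves.

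Intensities are in the deposited linear array units, with array medians of 35.9 to 46.5. The labelled structures were checked against their markers. Summed Avp and Oxt intensity was 7331 to 10518 on the PVN and SON arrays and 13.3 to 39.4 on the RVLM arrays, and the melanotroph sum was 2517 to 3619 in the NIL and at most 246.6 elsewhere. The adrenaline-synthesis gene Pnmt was at 113.4 to 251.2 in the RVLM of both strains and at most 16.5 elsewhere. The sum of the 3 RVLM markers (Th, Dbh and Pnmt), however, was 441.6 to 555.3 in the SON against 279.1 to 433.0 in the SHR RVLM, because Th, the dopamine-pathway enzyme, was higher in the SON (1.89, SE 0.235, limma adjusted p = 1.33e-06) and the PVN (0.88). The NIL arrays also held anterior pituitary markers, at a sum of 2946 to 16654. PVN array 3 stood apart from the other PVN arrays, with the lowest rank correlation to its own group (0.912, against 0.936 to the SON). Its meningeal and choroid plexus sum was 11598 against 957.8 to 1172 on the other 4, its red blood cell sum 1894 against 535.3 to 635.2, and its smooth muscle and pericyte sum 1241.7 against 227.9 to 309.9. In tissue samples of this kind, fewer cells of a type and less RNA per cell cannot be told apart.

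Across the 4 SHR structures, 9 of the 10 genes differed in the moderated F test of limma at a Benjamini-Hochberg adjusted p under 0.05, against 80.0% of the 10596 genes tested. A gene was called at that threshold in every comparison below, and differences are on the log2 scale of median-aligned intensity, as are the counts of members whose arrays did not overlap. Single arrays are described on the deposited scale. The exception was Sod1, the dismutase of the cytosol (adjusted p = 0.158). Its F test passed on the values as deposited (0.00596), after quantile normalization (3.78e-05) and with a pseudocount of 64 (0.0248), within a range of 3.78e-05 to 0.256 over the alternatives. The F test of Gpx4 (adjusted p = 0.0271) was lost without NIL array 4 or RVLM array 3, 4 or 5, with a range of 0.000455 to 0.0683 when arrays were left out in turn, and after quantile normalization (0.18, the highest of 0.000762 to 0.18 over the other alternatives). The NIL and the RVLM differed in the most members: 9 of 10, of which 6 were higher and 3 lower in the NIL. Of all genes tested in that comparison 67.8% were called, 37.6% higher and 30.2% lower, and the arrays did not overlap for 7 members (57.1% of genes).

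**Figure D1:**
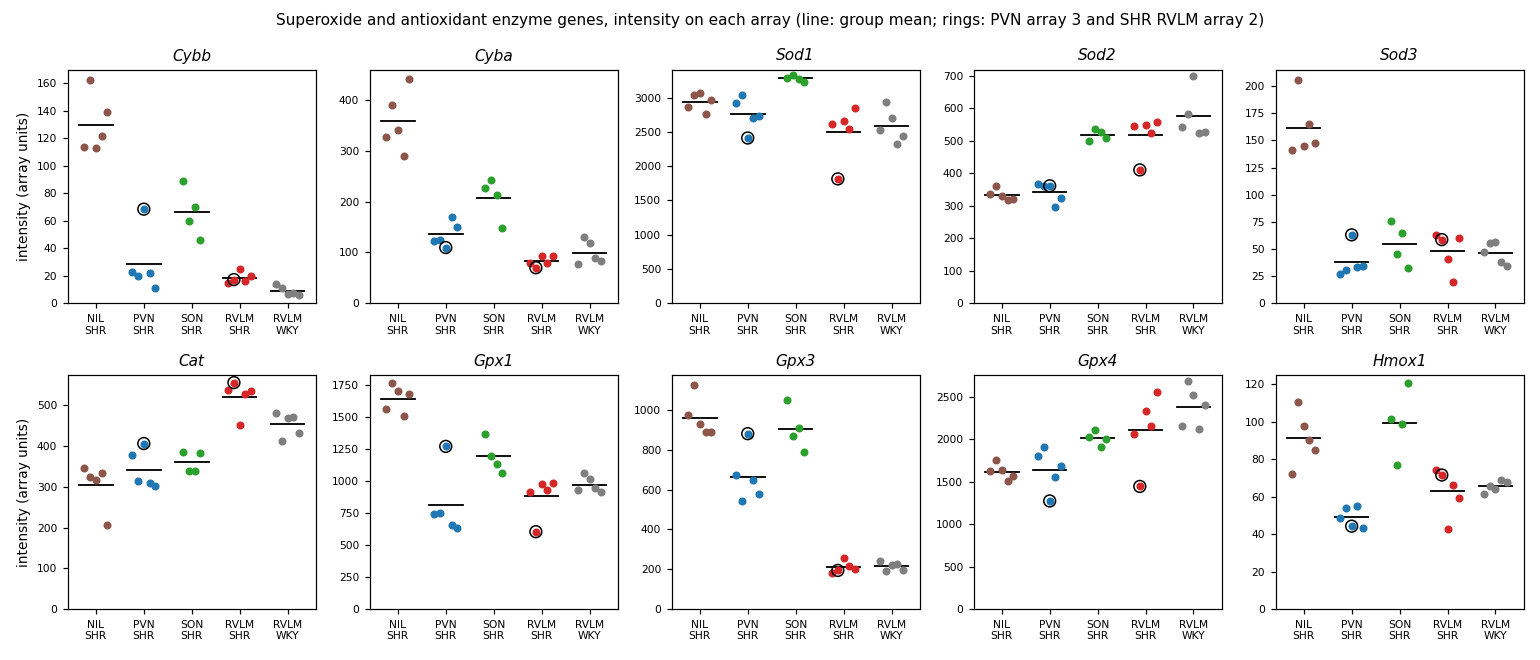
Deposited intensity (array units, linear axis from 0) of each of the 10 genes on each array, with 1 point per pooled array and a line at the group mean. Rings mark PVN array 3 and SHR RVLM array 2, and the 5 NIL points lie above all RVLM points of both strains for Cybb, Cyba, Sod3, Gpx1 and Gpx3.

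Cybb and Cyba, which encode the paired membrane subunits of the phagocyte NADPH oxidase (gp91phox, the electron-passing subunit, and p22phox, its partner), followed the same order of structures. Both had their highest mean in the NIL, then the SON, then the PVN, and their lowest in the SHR RVLM. Cybb intensity on the NIL arrays was 113.8, 162.0, 113.0, 121.3 and 138.9, and on the SON arrays 88.8, 59.7, 70.3 and 46.3. It was 22.5, 19.6, 68.4, 21.9 and 11 on the PVN arrays and 14.7, 17.2, 25.2, 16.4 and 20 on the SHR RVLM arrays. All NIL arrays were above all others, the SON arrays were above all RVLM arrays, and PVN array 3 lay among the SON arrays while the other 4 PVN arrays overlapped the RVLM. The mean of the NIL was 129.8 ± 20.8 (SD, n = 5) and that of the SHR RVLM 18.7 ± 4.11 (SD, n = 5), a difference of 2.72 (SE 0.334, 6.57-fold, limma adjusted p = 2.84e-07). The RVLM mean was under the filter level of 26.4, so Cybb entered the structure tests through the structures where it was high.

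Cyba intensity on the NIL arrays was 326.9, 389.1, 341.8, 289.7 and 441.0, and on the SON arrays 226.1, 241.8, 213.5 and 147.8. It was 122.5, 125.1, 109.6, 169.7 and 150.4 on the PVN arrays and 79.3, 69.9, 92.8, 78.7 and 92.8 on the SHR RVLM arrays. The NIL stood above every other structure and every PVN array above every SHR RVLM array, while SON array 4 fell between PVN arrays. The NIL exceeded the RVLM by 2.01 (SE 0.149, 4.04-fold, limma adjusted p = 8.41e-11). Neighbours in the order differed as well: the SON was below the NIL by 0.78 (difference -0.78, SE 0.158, adjusted p = 0.000286), the PVN was below the SON (-0.58, SE 0.158, adjusted p = 0.0173), and the PVN was above the RVLM (0.65, SE 0.149, adjusted p = 0.00119). The step from SON to PVN was lost when SON array 1, 2 or 3 was left out, with adjusted p of 0.0041 to 0.0651 over the array left out.

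The promoter windows of these subunits are shown together because both genes followed the same order of structures, with that of Sod2, the mitochondrial dismutase, beside them because Sod2 was low in the NIL. They are RefSeq windows of 300 bases on the GRCr8 build, from 250 bases before to 50 after each gene's start, printed along the gene's strand. Cybb is at chrX:16065016-16065315, Cyba at chr19:67404165-67404464 and Sod2 at chr1:50050119-50050418, all on the minus strand. Capitals mark matches to any of 4 short motifs searched on both strands: the PU.1 box GAGGAA, the GC box GGGCGG, the antioxidant response element core TGACNNNGC and the TATA box TATAAA.
Cybb: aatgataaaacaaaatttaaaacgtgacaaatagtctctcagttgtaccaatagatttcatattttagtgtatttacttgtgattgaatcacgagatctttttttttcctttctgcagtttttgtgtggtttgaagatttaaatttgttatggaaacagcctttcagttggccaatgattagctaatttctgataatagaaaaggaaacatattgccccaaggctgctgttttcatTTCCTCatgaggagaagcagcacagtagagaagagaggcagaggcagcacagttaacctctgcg
Cyba: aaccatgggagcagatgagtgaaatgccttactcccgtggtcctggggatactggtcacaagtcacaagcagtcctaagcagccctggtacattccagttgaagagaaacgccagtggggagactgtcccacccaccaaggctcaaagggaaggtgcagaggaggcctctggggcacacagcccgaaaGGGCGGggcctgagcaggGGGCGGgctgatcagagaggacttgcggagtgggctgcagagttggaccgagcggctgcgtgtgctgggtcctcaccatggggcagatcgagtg
Sod2: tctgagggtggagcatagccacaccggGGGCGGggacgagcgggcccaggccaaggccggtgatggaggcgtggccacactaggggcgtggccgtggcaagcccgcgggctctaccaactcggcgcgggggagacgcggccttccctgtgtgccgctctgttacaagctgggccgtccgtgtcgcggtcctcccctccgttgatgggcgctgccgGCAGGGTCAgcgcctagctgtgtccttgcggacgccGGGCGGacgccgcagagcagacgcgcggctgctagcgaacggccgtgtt
The Cybb window held 1 PU.1 box, on the reverse strand and first met 14 bases before the start, a motif present in 27.6% of all 33469 windows. PU.1 is a transcription factor of myeloid cells. Among the other members with a window, the PU.1 box was also found for Cat and Gpx3. The Cyba window held 2 GC boxes and no PU.1 box, and the GC box was present in 33.1% of windows. The Sod2 window held 2 GC boxes and, 35 bases before the start on the reverse strand, 1 antioxidant response element core, the motif bound by NRF2, which was present in 12.1% of windows. The TATA box (14.2% of windows) was in none of these 3 windows, and among the 8 members with a window it was found for Sod1. A match is a run of letters in this window and not a measured binding site.

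The position of the PVN for Cybb depended on the probe set and on PVN array 3. With all arrays the PVN was below the SON by a difference of -1.42 (SE 0.355, limma adjusted p = 0.00983) and did not differ from the RVLM by the test (0.31, 95% interval -0.39 to 1.00, adjusted p = 0.479). Without PVN array 3 the difference from the SON was -1.82 and that from the RVLM -0.09. The dimmer Cybb probe set read 21.2, 25.6, 20.2, 67.5 and 34.6 on the PVN arrays, so that array 4 and not array 3 was the high one. On that probe set the PVN was above the RVLM by 0.79 (SE 0.232, adjusted p = 0.00817), and its difference from the SON was -0.27 (95% interval -0.78 to 0.24, adjusted p = 0.502). The difference between NIL and RVLM was called on both probe sets, at 2.72 on the brighter and 1.58 on the dimmer (SE 0.232, adjusted p = 3.42e-06). The SHR RVLM mean of the dimmer probe set, 17, was under the filter level of 26.4 as well. Like the brighter one, it entered the structure tests through the structures where it was high. The SON was below the NIL on the brighter probe set (-0.98, SE 0.355, adjusted p = 0.0255). That call was lost on the dimmer probe set (-0.51, adjusted p = 0.0884) and without NIL array 2, SON array 2 or SON array 4 (0.00163 to 0.0919 over the array left out). The second Cyba probe set, at most 12.8 on any array, was under the filter and gave no check.

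By group median, the summed intensity of microglia and macrophage markers had the order of the oxidase subunits. The summed intensity of 18 such markers was 2401 to 2856 in the NIL, 1674 to 2253 in the SON, 1463 to 1948 in the PVN and 1274 to 1544 in the SHR RVLM. Of 15 tested markers 11 were higher and 3 lower in the NIL than in the RVLM, with a median difference of 0.68 against 0.10 over all genes, where 67.8% of all genes were called, 37.6% higher and 30.2% lower. The ranges of the sum overlapped for SON and PVN and for PVN and RVLM. In SON minus NIL 3 markers were called higher and 4 lower, where 51.2% of genes were called, 24.7% higher and 26.5% lower. In PVN minus SON 0 were higher and 3 lower (16.1% of genes called, 9.02% higher and 7.12% lower). In PVN minus RVLM 3 were higher and 1 lower (45.6% of genes called, 26.3% higher and 19.3% lower). The sum of 3 neutrophil markers, of which 0 passed the filter, had the same order by group median. It was 29 to 173.8 in the NIL, 10.8 to 26.1 in the SON, 7.35 to 41.3 in the PVN and 5.55 to 16.7 in the SHR RVLM. The part of microglia, macrophages and neutrophils in the differences of Cybb and Cyba was not tested.

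**Figure D2:**
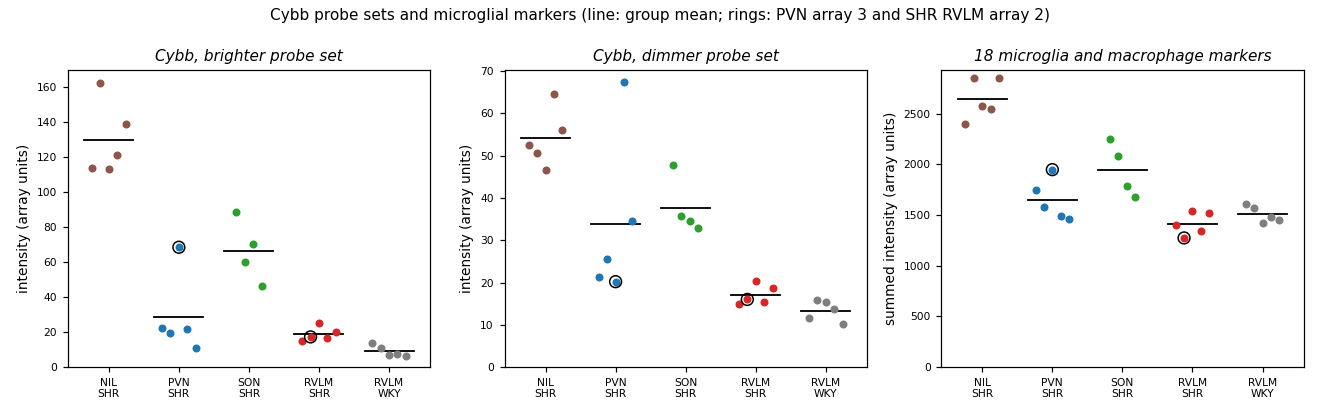
Intensity of the brighter and the dimmer Cybb probe set and summed intensity of 18 microglia and macrophage markers (array units, axes from 0), 1 point per array with lines at group means. The high PVN array is array 3 (68.4, ringed) on the brighter and array 4 (67.5) on the dimmer probe set, and the marker sum is highest in the NIL (2401 to 2856).

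The 3 superoxide dismutases each had a different order of structures. Sod1 varied little: intensity was 2857, 3039.9, 3062, 2761 and 2969 on the NIL arrays, 2925, 3036, 2409.9, 2708 and 2733 on the PVN arrays, and 3286, 3330.4, 3271 and 3222 on the SON arrays. On the SHR RVLM arrays it was 2613, 1813.5, 2653, 2536 and 2841. The SON arrays lay above all NIL arrays and RVLM array 2 lay far below the rest, but no pairwise difference of Sod1 passed the test. The difference nearest to it was SON minus RVLM at 0.33 (95% interval 0.05 to 0.62, limma adjusted p = 0.0513), which passed under 7 of 12 alternatives (0.000242 to 0.0977). NIL minus RVLM passed on the values as deposited (0.25, limma adjusted p = 0.0219) and after quantile normalization (0.35, 0.000452). PVN minus RVLM passed after quantile normalization (0.48, 2.53e-05), and SON minus NIL with only the 2 groups in the fit (0.0435).

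Sod2 fell into a high and a low pair of structures. Intensity was 335.2, 361.5, 331.3, 318.1 and 320.0 in the NIL and 368.2, 360.9, 361.5, 297.4 and 324.1 in the PVN. It was 499.6, 537.7, 528.6 and 508.4 in the SON and 546.9, 410.4, 549.9, 525.3 and 557.6 in the SHR RVLM. All SON and RVLM arrays lay above all NIL and PVN arrays, with RVLM array 2 the lowest of the high ones, although after median alignment it overlapped the PVN. The SON exceeded the NIL by 0.65 (SE 0.132, limma adjusted p = 0.000289), and the PVN was below the SON (-0.57, SE 0.132, adjusted p = 0.00567) and below the RVLM (-0.64, SE 0.124, adjusted p = 0.000223). Within the pairs the differences were 0.08 for PVN minus NIL (95% interval -0.18 to 0.33) and -0.07 for SON minus RVLM (-0.34 to 0.20).

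Sod3, the dismutase that is secreted into the extracellular space, was high in the NIL alone. Intensity was 141.4, 205.8, 144.9, 165.3 and 147.8 in the NIL, and 27.3, 30.7, 63, 33.1 and 34.4 in the PVN. It was 75.4, 45.6, 64.6 and 32.8 in the SON and 63, 58.6, 41.1, 19.3 and 60 in the SHR RVLM. Every NIL array was above every array of the other structures, and the other 3 structures overlapped. The NIL exceeded the PVN by 4.31-fold (PVN minus NIL -2.11, SE 0.287, limma adjusted p = 1.95e-06), the SON by 3.04-fold (adjusted p = 0.000147) and the RVLM by 3.36-fold (adjusted p = 1.47e-05). Among PVN, SON and RVLM the differences of Sod3 were between -0.50 and 0.14 and none was called. Without RVLM array 4, at 19.3, PVN minus RVLM was -0.65 and called (limma adjusted p = 0.0386).

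Cat encodes catalase, the peroxide-splitting enzyme of peroxisomes, and was high in the RVLM. Intensity was 538.1, 556.1, 452.3, 527.5 and 535.8 on the SHR RVLM arrays and 385.9, 339.4, 338.6 and 382.3 on the SON arrays. It was 379.2, 313.6, 406.5, 309.7 and 301.9 on the PVN arrays and 346.0, 324.0, 316.2, 334.4 and 205.2 on the NIL arrays. No RVLM array overlapped an array of the other structures, while the NIL, PVN and SON overlapped. The RVLM exceeded the NIL by 1.85-fold (NIL minus RVLM -0.89, SE 0.146, limma adjusted p = 1.47e-05), the PVN by 1.59-fold (adjusted p = 0.000768) and the SON by 1.52-fold (adjusted p = 0.00287). The differences among NIL, PVN and SON were at most 0.28 in size and none was called.

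The 3 glutathione peroxidases, which are selenium enzymes, had different orders too. Gpx1, the form of the cytosol, had intensities of 1563, 1768, 1705, 1510.5 and 1681 in the NIL and of 1372, 1199.8, 1133 and 1067 in the SON. It was at 740.1, 751.4, 1271.8, 653.6 and 634.3 in the PVN and at 914.1, 604.8, 976.9, 933.8 and 987.6 in the SHR RVLM. All NIL arrays were above all other arrays, and PVN array 3 was the only PVN array among those of the SON. The NIL exceeded the PVN by 2.04-fold (PVN minus NIL -1.03, SE 0.185, limma adjusted p = 6.72e-05) and the RVLM by 1.77-fold (adjusted p = 0.000493). The SON lay between and was not called against the NIL (-0.46, 95% interval -0.86 to -0.05, adjusted p = 0.0602), the PVN or the RVLM. The difference from the NIL was called under 7 of 12 alternatives (0.000405 to 0.0832).

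For Gpx1, PVN minus SON was -0.57 (95% interval -0.98 to -0.17, limma adjusted p = 0.0529), and without PVN array 3 it was -0.76 and called (0.00144 to 0.151 over the array left out). It was called under 7 of 12 other alternatives too (0.000213 to 0.115). PVN minus RVLM of Gpx1 was -0.20 (limma adjusted p = 0.393). It was called without PVN array 3 (-0.39, 0.0381) and with array weights (-0.47, 0.00474). Red blood cells are rich in Gpx1 and catalase. The summed intensity of 5 red blood cell markers was 3022 to 5062 in the NIL, 1018.5 to 1497 in the SON, 505.4 to 952.6 in the SHR RVLM, and 1894 on PVN array 3 against 535.3 to 635.2 on the other PVN arrays. Cat, unlike Gpx1, was lower in the NIL than in the RVLM (-0.89, limma adjusted p = 1.47e-05). The part of red blood cells in the Gpx1 and Cat differences was not tested.

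Gpx3, the form secreted into plasma and extracellular fluid, was low in the RVLM. Intensity was 183.2, 193.9, 255.1, 214.4 and 202.3 on the SHR RVLM arrays and 672.8, 542.9, 880.4, 647.7 and 577.2 on the PVN arrays. It was 1047, 867.8, 908.3 and 786.0 on the SON arrays and 971.9, 1125.4, 929.9, 886.4 and 890.0 on the NIL arrays. Every RVLM array was far below the lowest array of any other structure, and PVN array 3 lay among the SON arrays. The RVLM was lower than the NIL by 4.31-fold (NIL minus RVLM 2.11, SE 0.146, limma adjusted p = 2.74e-11), than the SON by 4.08-fold (adjusted p = 1.16e-09) and than the PVN by 3.03-fold (adjusted p = 1.5e-08). The PVN was below the NIL (-0.51, SE 0.146, adjusted p = 0.00553), and PVN minus SON was -0.43 (adjusted p = 0.0671), which was called without PVN array 3 (-0.55, 0.00693 to 0.202 over the array left out) and under 6 of 12 other alternatives (0.000551 to 0.144).

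Gpx4, which reduces peroxides within membrane lipids, differed least among the peroxidases. Intensity was 1627, 1759.8, 1643, 1504 and 1564 in the NIL and 1799, 1906, 1274, 1555 and 1682 in the PVN. It was 2032, 2105.5, 1907 and 2006 in the SON and 2067.5, 1445.6, 2329.6, 2153 and 2562 in the SHR RVLM. The SON arrays lay above all NIL arrays and, by a narrow margin that median alignment removed, above all PVN arrays. RVLM array 2 was below all NIL arrays while the other 4 RVLM arrays were above them. The NIL was below the RVLM (-0.45, SE 0.151, limma adjusted p = 0.0121). The PVN was below the RVLM as well (-0.40, SE 0.151, adjusted p = 0.0357), a call lost when any of PVN arrays 3 to 5 or RVLM arrays 3 to 5 was left out (0.000907 to 0.113). It was also lost after quantile normalization (-0.19), without a filter, with only the 2 groups in the fit and with the replicate block (0.00531 to 0.118 over the alternatives). The second Gpx4 probe set was dim, at 6.61 to 54.9, and entered only the strain test.

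Hmox1 encodes the inducible haem oxygenase, which breaks haem into biliverdin, carbon monoxide and iron, and it was low in the PVN. Intensity was 48.8, 53.7, 44.2, 54.8 and 43 on the PVN arrays and 101.3, 76.7, 98.8 and 120.7 on the SON arrays. It was 72, 110.6, 97.6, 90.3 and 84.8 on the NIL arrays and 74, 71.5, 42.8, 66.3 and 59.2 on the SHR RVLM arrays. All PVN arrays were below all NIL and SON arrays, PVN array 3 included, and RVLM array 3 was at the level of the PVN. The PVN was lower than the SON by 1.98-fold (difference -0.98, SE 0.167, limma adjusted p = 0.000581) and lower than the NIL by 1.80-fold (-0.85, SE 0.157, adjusted p = 9.3e-05). The RVLM was below the SON by 1.51-fold (adjusted p = 0.00622) and below the NIL by 1.37-fold (adjusted p = 0.0142, and 0.00888 to 0.0574 over the array left out, lost without RVLM array 3). PVN minus RVLM was -0.39 (SE 0.157, adjusted p = 0.0479), a call that 12 of 19 leave-outs removed (0.00915 to 0.124).

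**Figure D3:**
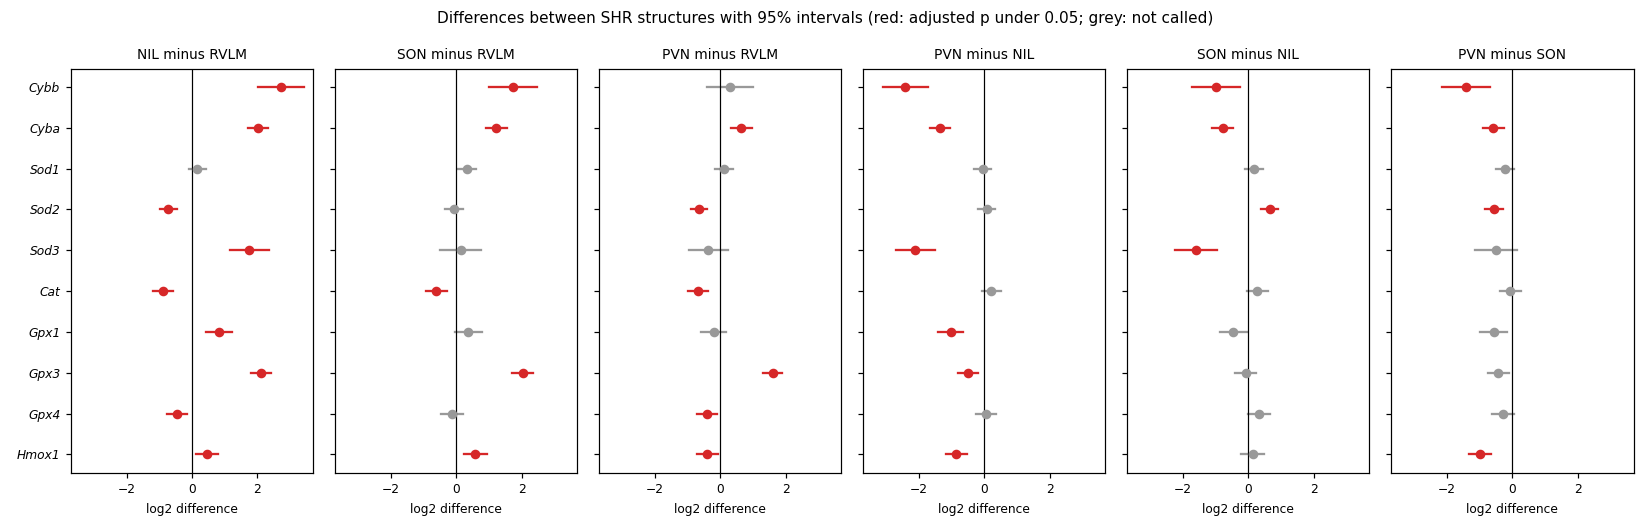
Log2 differences between pairs of SHR structures for the 10 genes, with 95% intervals from the limma fit of 19 arrays, in red where the adjusted p was under 0.05 and in grey otherwise. In PVN minus SON all 10 points lie below 0 and 4 are red, and in NIL minus RVLM 9 are red, from -0.89 for Cat to 2.72 for Cybb.

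The pairs of structures differed in how many members were called. PVN minus SON was below 0 for 10 of 10 members, with a median of -0.54 (-0.58 without PVN array 3) against 0.01 over all genes. The sign was not stable for each of them: Sod1 was at 0.07 after quantile normalization and Cat at 0.02 without PVN array 4. Called were 4 members, all lower in the PVN (Cybb, Cyba, Sod2 and Hmox1), where 16.1% of all genes were called, 9.02% higher and 7.12% lower. The arrays did not overlap for 2 of them (Sod2 and Hmox1), where 12.0% of all genes did not. Without PVN array 3 there were 6 called members, with Gpx1 and Gpx3 added. In that setting 2437 of 10595 genes were called, 1233 higher and 1204 lower. The meningeal and choroid plexus marker sum was 8090 to 13296 in the SON. It was 957.8 to 1172 in the PVN apart from array 3, at 11598. Of 10 such markers tested in PVN minus SON, 1 was called higher and 8 lower, with a median of -2.81. The part of this tissue in the member differences was not tested. In PVN minus NIL 6 members were called, all lower in the PVN, where 57.1% of genes were called, 27.4% higher and 29.8% lower, and 5 members had arrays that did not overlap (39.3% of genes). In PVN minus RVLM 6 were called, 2 higher and 4 lower, where 45.6% of genes were called, 26.3% higher and 19.3% lower, and 3 had arrays that did not overlap (26.0% of genes). Without PVN array 3, 5 members were called in PVN minus RVLM, 2 higher and 3 lower, where 5112 of 10595 genes were called.

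SON minus NIL gave 4 called members, 1 higher and 3 lower, where 51.2% of genes were called, 24.7% higher and 26.5% lower, and 7 did not overlap (49.9% of genes). SON minus RVLM gave 5, of which 4 were higher and 1 lower, where 45.7% of genes were called, 25.4% higher and 20.3% lower, and 5 did not overlap (41.3% of genes). The shares of members called in either direction in these comparisons, in PVN minus NIL and in PVN minus RVLM were near those of all genes. The 6 comparisons share their arrays and are not independent of each other.

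In the RVLM no member differed between SHR and WKY by the test. Of the 10 genes 9 passed the filter, and Cybb, which did not, is described below. Of the 9 that passed, 0 were called by limma at an adjusted p under 0.05 and 0 had an unadjusted p under 0.05. Of 10400 genes 1.41% were called, 0.548% higher and 0.865% lower in SHR. The arrays of SHR and WKY overlapped for all 9, where 3.00% of all genes did not overlap. Of the 9 differences 8 were below 0, with a median of -0.12 against -0.03 over all genes. Without SHR RVLM array 2 it was 7 of 9, with a median of -0.07.

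Cyba intensity on the WKY arrays was 76.3, 129.7, 117.7, 88.5 and 83.1, a spread that covered most of the SHR values of 69.9 to 92.8. SHR minus WKY was -0.27 for Cyba (95% interval -0.58 to 0.05, limma adjusted p = 0.633). Sod1 on the WKY arrays was at 2529.6, 2935, 2695, 2324 and 2441, Sod2 at 543.3, 583.1, 698.9, 522.5 and 526.8, and Sod3 at 47, 55.3, 56.3, 38.3 and 34.1. The strain differences were -0.09 for Sod1 (95% interval -0.38 to 0.19), -0.18 for Sod2 (-0.42 to 0.06) and -0.05 for Sod3 (-0.60 to 0.49). The ranges of both strains overlapped for each dismutase, and the interval was widest for Sod3.

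Cat was the only tested member with a positive strain difference. Its WKY intensity was 481.8, 413.4, 469.8, 472.0 and 431.4, so that 4 of 5 SHR arrays lay above all WKY arrays and SHR array 3, at 452.3, lay within them. The difference was 0.17 (95% interval -0.02 to 0.36, limma adjusted p = 0.591). Gpx1 on the WKY arrays was at 931.8, 1060.5, 1014.5, 945.9 and 912.7, Gpx3 at 238.7, 193.1, 221.2, 223.7 and 195.7, and Gpx4 at 2158, 2683, 2526, 2122 and 2407. Their differences were -0.19 (95% interval -0.48 to 0.10), -0.07 (-0.31 to 0.17) and -0.22 (-0.54 to 0.10). Hmox1 was at 61.2, 65.6, 64.2, 68.8 and 67.8 in WKY, a narrower range than in SHR, and differed by -0.12 (-0.41 to 0.18). For Cyba, Sod1, Sod2, Gpx1 and Gpx4 SHR array 2 was the lowest of all 10 RVLM arrays. Without that array their strain differences were -0.18, 0.04, -0.07, -0.03 and -0.07, in that order.

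Cybb was under the filter level of 26.3 in the RVLM and so was not among the 9. Its WKY intensity was 13.8, 11, 7, 7.7 and 6.14, and all 5 SHR arrays, at 14.7 to 25.2, lay above them. In the fit without a filter SHR minus WKY was 1.04 (SE 0.32, 95% interval 0.36 to 1.73). Its limma p was 0.0054 unadjusted and 0.249 adjusted (adjusted 0.194 to 0.249 over the fits that tested it). The share of genes without overlap was counted only among genes above the filter (3.00%). The dimmer probe set read 14.8, 16, 20.4, 15.4 and 18.6 in SHR and 11.6, 15.8, 15.4, 13.8 and 10.2 in WKY, which overlapped, and its difference was 0.33 (95% interval -0.24 to 0.89, adjusted p = 0.803). The sum of the microglia and macrophage markers was 1274 to 1544 in SHR and 1420 to 1608 in WKY, and 0 of 15 tested markers were called. Both Cybb probe sets were thus near the low end of the array scale in this structure, and the higher level in SHR rests on the brighter one.

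**Figure D4:**
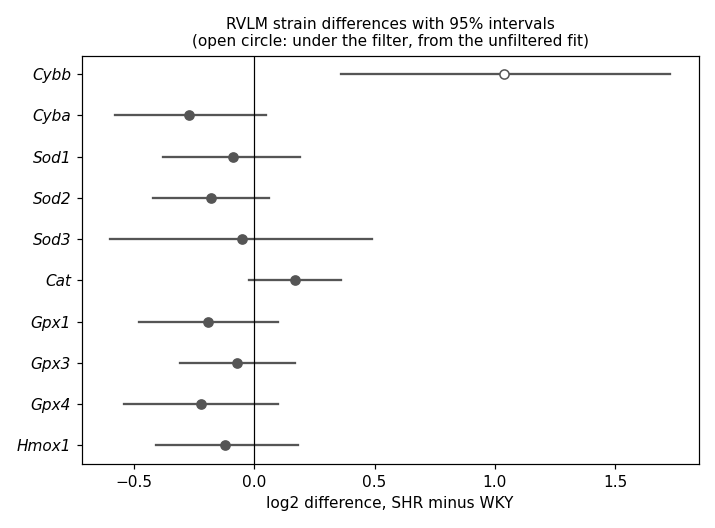
Log2 difference between SHR and WKY in the RVLM for each gene with its 95% interval (5 arrays a strain, limma). Every interval of the 9 genes that passed the filter spans 0, and the open circle for Cybb, from the fit without a filter, is at 1.04 (0.36 to 1.73) and was not called.

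Other genes of these pathways were counted from lists of oxidases, peroxiredoxins and thioredoxins, glutathione synthesis, haem, iron and copper handling, NRF2 control and selenium supply. Between the strains, 1 of 20 tested peroxiredoxin and thioredoxin genes and 1 of 15 haem, iron, metallothionein and copper genes were called, both lower in SHR, where 1.41% of all genes were called and 0.865% were lower. The former was Txnip, the inhibitor of thioredoxin (156.0 ± 12.7 in SHR and 247.2 ± 34.9 in WKY, SD, n = 5 each), with a difference of -0.69 (SE 0.116, limma adjusted p = 0.00286). The latter was Mt2A, a metal-binding metallothionein (403.5 ± 78.5 and 597.1 ± 59.1, SD, n = 5 each), with a difference of -0.61 (SE 0.143, adjusted p = 0.0364). Of the 9 oxidase, 16 glutathione, 14 NRF2 and 14 selenium genes tested, 0 were called, and the median difference of the 6 lists was between -0.18 and -0.08.

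Among the other oxidase genes, 4 of 7 tested were called between NIL and RVLM, 2 in each direction. All list counts for this pair stand against 67.8% of all genes called, 37.6% higher and 30.2% lower, and those of the oxidase, haem, iron and copper, and peroxiredoxin lists were below that share. Rac2, the small GTPase of blood-cell NADPH oxidase, was higher in the NIL (1.19, SE 0.224, limma adjusted p = 7.71e-05) and its widely expressed relative Rac1 lower (-0.97, SE 0.116, adjusted p = 1.94e-07). The amine oxidases Maoa and Maob, which release hydrogen peroxide, were lower (-1.11) and higher (1.02) in the NIL. Aldehyde oxidase, encoded by Aox1, was higher in the SON than in the RVLM by 1.86 (SE 0.245, adjusted p = 2.81e-06), the NIL by 1.91 and, read as PVN minus SON, the PVN (-1.40, SE 0.245, adjusted p = 0.000758). Nox4, Ncf1 and Noxo1 had mean intensities of at most 14.6 in every group and were under the filter.

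Of 17 tested genes of glutathione synthesis and recycling 15 were called between NIL and RVLM, 8 higher and 7 lower, with a median difference of 0.21 against 0.10 over all genes and 67.8% of all genes called. The genes with the largest differences were lower in the NIL. They were Slc7a11, which imports cystine (-2.63, SE 0.228, limma adjusted p = 1.25e-09), Me1, a source of NADPH (-1.73), and Gclm, the modifier subunit of glutamate-cysteine ligase (-1.49). Slc7a11 intensity was 49.7 ± 8.57 in the NIL (SD, n = 5) and 574.7 ± 141.4 in the SON (SD, n = 4), a difference of 3.53 (SE 0.242, adjusted p = 5.5e-11), and Gclc, the catalytic subunit of that ligase, was higher in the SON than in the NIL by 1.44. The summed intensity of 8 astrocyte markers was 3157 to 3781 in the NIL, 14923 to 17219 in the SON and 14432 to 17535 in the SHR RVLM. The part of these cells was not tested.

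Of the haem, iron and copper genes 8 of 14 were called between NIL and RVLM, 4 in each direction. Ccs, the copper chaperone that loads Sod1, was higher in the NIL by 1.22 (SE 0.148, limma adjusted p = 2.33e-07) and in the SON by 0.84 (adjusted p = 0.000174). Sod1 itself was not called in either comparison with the settings as chosen, but was called in both under some alternatives. The copper pump Atp7a was higher in the NIL by 1.79, and Cp, which encodes the copper enzyme ceruloplasmin, was higher than in the RVLM in the NIL (2.00) and the SON (2.32). Transferrin receptor mRNA (Tfrc) was lower in the NIL (-2.10, SE 0.126, adjusted p = 2.58e-12). Hmox2, the constitutive haem oxygenase, was lower in the SON than in the RVLM (-1.07, SE 0.146, adjusted p = 4.4e-06), where Hmox1 was higher.

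Selenium genes were called between NIL and RVLM in 12 of 14 cases, 6 in each direction. Selenop, which carries selenium, was lower in the NIL by a difference of -1.80 (SE 0.141, limma adjusted p = 2.25e-10) and its receptor Lrp8 higher by 1.25 (SE 0.135, adjusted p = 4.12e-08). Of 15 NRF2 genes 11 were called there, 5 higher and 6 lower. Nfe2l2, which encodes NRF2, was higher in the NIL (0.90, SE 0.137, adjusted p = 5.99e-06). The largest differences on that list were those of the paraoxonase Pon3 (3.18) and the mitochondrial carrier Ucp2 (2.57), both higher in the NIL.

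Of 20 peroxiredoxin and thioredoxin genes 10 were called between NIL and RVLM, 5 in each direction, with a median of -0.22. Txnip led with 1108 ± 47.3 in the NIL and 156.0 ± 12.7 in the SHR RVLM (SD, n = 5 each), a difference of 2.74 (SE 0.201, limma adjusted p = 7.46e-11). Prdx4, the peroxiredoxin of the endoplasmic reticulum, was higher by 1.09 (SE 0.148, adjusted p = 1.15e-06).

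For the members whose SHR structure means spanned at least 1 on the log2 scale, the genes with the most similar pattern were taken by the root mean square difference of centred log2 values over 19 arrays. For Cybb they were Plac8 (0.354), Copz2 (0.358) and Ifitm3 (0.363), and for Cyba Atp6v0e1 (0.221), Sra1 (0.249) and Trim5 (0.272). For Sod3 they were Parp9 (0.378), Igfbp7 (0.392) and Rassf3 (0.409). For Gpx1 they were Selenos (0.138), a selenoprotein of the endoplasmic reticulum, Ifi30 (0.152) and Cmbl (0.168), and for Gpx3 Man1b1 (0.236), Antxr2 (0.264) and C1qtnf2 (0.274). Ifitm3, for example, averaged 1046.9 in the NIL, 622.6 in the SON, 230.3 in the PVN and 149.3 in the RVLM, the order of Cybb. The distances describe these arrays, which share their tissue makeup.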

How the data were processed

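The authors deposited 1 table of linear signal intensity for 31099 probe sets on 24 Affymetrix rat arrays. Per the submitters' processing notes the software was GCOS 1.2; how it was set, and any detection calls, are not stated in the labels. The 2% trimmed mean of the deposited intensity was 100 on each array, which is what scaling by 1 factor per array gives, and array values are limited in precision by the number of arrays. Of WKY, structures beyond the RVLM were not analysed here.

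Log2 intensity was used without a pseudocount, and arrays were shifted to a common median. After 57 control probe sets were left out, probe sets with a mean log2 value above the 40th percentile of a fit were kept (18625 in each). Differences were fitted with lmFit and eBayes (intensity trend) of limma 3.58.1 in R 4.3.3, and p-values were adjusted by Benjamini-Hochberg over all of them. The strain fit used 10 RVLM arrays and the structure fit 19 SHR arrays with 6 pairwise contrasts and an F test. The code was tested on simulated data. Nothing in the labels says that pools of different structures came from different rats, and p-values measure the spread between pools. Counts of genes use the brightest probe set per symbol (20826 probe sets carry 1 symbol, 436 several, 9780 none).

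The members and gene lists were chosen with earlier results of these data known. All members are named. Of each wider list at most 4 called genes per comparison are named, those with the largest differences, and Nox4, Ncf1 and Noxo1 are the exceptions, chosen after their values were seen. The list of genes with similar patterns took the 3 nearest for each member spanning at least 1. Alternatives were deposited values, quantile normalization, pseudocounts of 16 and 64, a filter at the 60th percentile or none, no intensity trend, array weights, a replicate block, the mean of kept probe sets, other arrays in the fit, each array left out, and, added after the data were seen, the other Cybb probe set. Promoter windows are RefSeq's (GRCr8), and 8 of 10 members had one.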

Additional observations from a re-analysis of the deposited data

Results flagged for a closer look

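Within each group of 4 or 5 arrays, an array was set apart when its gap to the nearest other array was larger than Dixon's 95% critical value allows. Over the 10 genes and 5 groups, 7 of 50 group values were marked, where chance marks about 1 in 20. The check used linear intensity and not the log2 scale of the tests. The 10 genes share their arrays, so the 50 are not independent of each other. PVN array 3 was marked for 3 genes and was high each time: Cybb at 68.4 against 11 to 22.5 on the other 4 arrays, Sod3 at 63 against 27.3 to 34.4, and Gpx1 at 1271.8 against 634.3 to 751.4. The dimmer Cybb probe set read 20.2 on PVN array 3, the lowest of its PVN values. The same array had the high meningeal, red blood cell and smooth muscle marker sums given above. Its endothelium sum was 2707 against 1531 to 1638 on the other PVN arrays, and its oligodendrocyte sum 8546 against 3367 to 4204. The part of these tissues in the marked values was not tested. SHR RVLM array 2 was marked for Sod2, at 410.4 against 525.3 to 557.6, and for Gpx1, at 604.8 against 914.1 to 987.6, and was low for both. Cat was marked on NIL array 5, at 205.2 against 316.2 to 346.0, and on SHR RVLM array 3, at 452.3 against 527.5 to 556.1.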

How the results depend on the processing

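Counts of members called stayed within 1.5 times their values under all alternatives except SON minus NIL, which gave 4 with all settings as chosen, 2 when the filter was set at the 60th percentile, and 7 with only the 2 groups compared in the fit. With each array left out in turn they were 8 to 9 for the F test, 8 to 9 for NIL minus RVLM, 6 for PVN minus NIL, 4 to 6 for PVN minus RVLM, 3 to 6 for PVN minus SON, 3 to 6 for SON minus NIL, 5 to 7 for SON minus RVLM and 0 for SHR minus WKY. Values that turned sign had not been called: Sod2 in SON minus RVLM (0.01 on values as deposited, 0.07 after quantile normalization), Sod1 after quantile normalization in PVN minus SON (0.07) and PVN minus NIL (0.14), Sod3 between strains with a pseudocount of 64 (0.01), Cybb in PVN minus RVLM with array weights (-0.16), and Cat in PVN minus SON with the replicate block (0.00). Left-out arrays turned the sign of Sod2 (0.00 to 0.17) and Gpx4 (-0.04 to 0.12) in PVN minus NIL, Cybb (-0.09 to 0.61) and Sod1 (-0.03 to 0.18) in PVN minus RVLM, Cat in PVN minus SON (-0.15 to 0.02), Sod3 in SON minus RVLM (-0.15 to 0.37), and, between strains, Sod1 (-0.17 to 0.04), Hmox1 (-0.17 to 0.01) and Sod3 (-0.18 to 0.24). The cause was not tested. Of all genes, 1710 were called in PVN minus SON, 2970 with array weights, 849 with only those groups in the fit and 1005 without SON array 3. Arrays of the same number deviated together weakly at most (r of -0.119 to 0.166 over 46 pairs, 4 above 0.1). For PVN with SON all 4 r were positive (0.079 to 0.166). For NIL with SON the best match had the same number in 3 of 4 cases (r of 0.001 to 0.037). The numbers were not used to pair pools, except in the replicate block. The replicate block removed the calls of Gpx4 (adjusted p = 0.0515) and Hmox1 (0.0625) in PVN minus RVLM, leaving 4 members there, and left the other member counts at their values. Quantile normalization removed the Gpx4 call in NIL minus RVLM (-0.20, adjusted p = 0.0718). Fits with only 2 groups removed the Cybb call in PVN minus SON (adjusted p = 0.0662). Values near the low end of the array scale, as for Cybb in the RVLM, have no detection call here.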
